A study of Drosophila melanogaster with 6 samples.

Results

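The glial genes described here are repo, gcm, gcm2, loco and moody of Drosophila melanogaster. Their members were chosen by gene symbol, as the probe sets that the array annotation assigns to 1 of these symbols and to no other gene. This gave 1 probe set for each of the 5 genes, or 5 of the 18769 probe sets kept on the array. All 5 had a present call, the scanner software's statement that a signal is above background, on all 6 arrays, and all 5 were among the 10137 probe sets tested.

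Total RNA of whole dechorionated embryos was measured in 2 groups of 3 biological replicates. The control group, 2xbcd, came from TT16 males crossed to TT16 females, and the other group, 6xbcd, from TT16 males crossed to bcd+t8 females, labelled as mothers with 6 rather than 2 copies of the head patterning gene bicoid (bcd). Eggs were collected over 90 min and kept for 8 h at 25 degrees, to stages 12 to 13, and each array carried RNA of more than 100 eggs. The mother's stock, her bcd copies and the embryos' own genotype changed together and cannot be told apart.

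Glia are the support cells of the nervous system. In the fly embryo the transcription factor Gcm is switched on briefly in glial precursors and turns them away from the neuronal fate, together with its close relative Gcm2. Gcm activates repo, whose homeodomain protein then stays on in all lateral glia and maintains their differentiation, and loco is another known target of Gcm. Gcm and Gcm2 also act outside the nervous system, in the precursors of blood cells. Midline glia arise separately and do not use gcm or repo. Loco, a regulator of G protein signalling, and Moody, a G protein-coupled receptor, later act in the surface glia that seal the blood-brain barrier.

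Per array, present calls numbered 9697 to 10474. The first principal component, here called the main axis, took up 53.5% of the variance between arrays, with 2xbcd replicates 2 and 3 at 19.1 and 39.4 on it, 6xbcd replicate 2 at 6.87 and the other 3 arrays between -22.3 and -21.4. As a check of the groups, bcd read 1375 or more on every 6xbcd array and 861 or less on every 2xbcd array. Signals are linear intensities that the authors scaled to a common trimmed mean, and the signal of a probe set can be compared between arrays but not with that of another probe set. In whole embryos, fewer cells of a type and less RNA per cell cannot be told apart.

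None of the 5 glial genes passed the test between 6xbcd and 2xbcd embryos (limma, adjusted p of 0.05 or less). The same test called 1.32% of all 10137 tested probe sets, so that a count of 0 among 5 genes lies near that background. All 5 fitted log2 changes were below 0, between -0.21 and -0.015, with a median of -0.11, beside a median of 0.011 over all tested probe sets. A change below 0 was also seen for 47.3% of those probe sets. At an unadjusted p of 0.05 or less in limma, 1 of the 5, repo, was lower. It missed that value in 9 of 20 other settings, among them the limma fits without the intensity trend (unadjusted p = 0.0887) and without replicate 3 (unadjusted p = 0.141). Of the members, 4 of the 5 read highest on 2xbcd replicate 3, as did 21.2% of all tested probe sets and many genes of related lists.

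**Figure D1:**
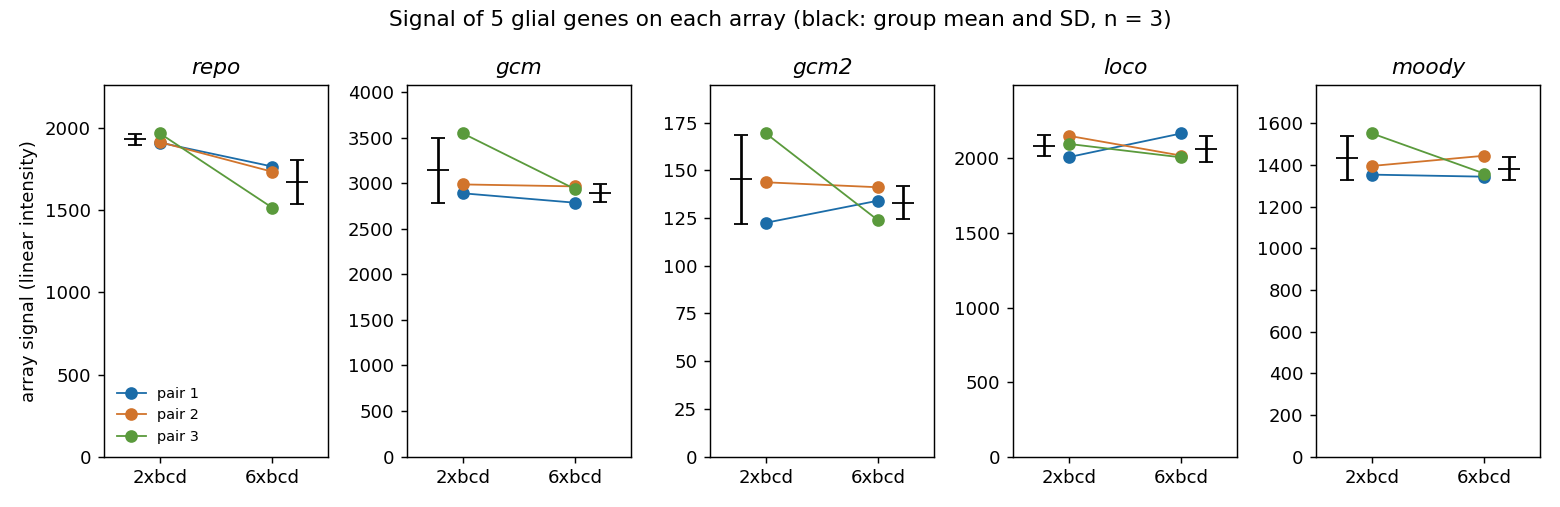
Signal of repo, gcm, gcm2, loco and moody (linear intensity, axes from 0 and different in each panel) on the 3 arrays of 2xbcd and of 6xbcd embryos, with lines joining arrays of the same replicate number and black bars for the group mean ± SD (n = 3). For repo the 6xbcd points lie below the 2xbcd points on all arrays, while for the other 4 genes the groups overlap.

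The gene repo, the homeobox regulator that marks lateral glia, lies on chromosome arm 3R. It read 1766, 1735 and 1516 in 6xbcd replicates 1, 2 and 3 and 1912, 1915 and 1968 in the 2xbcd replicates of the same numbers. The 6xbcd signals were thus all below the 2xbcd signals, and 6xbcd replicate 3 was the lowest. Groups that do not overlap, with 6xbcd lower, were also found for 8.68% of all tested probe sets.

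The repo signal averaged 1672 ± 137 over the 6xbcd arrays (SD, n = 3), against 1931 ± 31.4 over the 2xbcd arrays (SD, n = 3). This is a log2 change of -0.21 (SE 0.0721), a ratio of 0.865 with a 95% interval from 0.764 to 0.980. The unadjusted p of limma was 0.0297, and adjusted over all tested probe sets it was 0.280. An unadjusted p of 0.05 or less with 6xbcd lower was reached by 7.32% of all tested probe sets. The difference was lower in 3 of 3 pairs, at -0.11, -0.14 and -0.37 on the log2 scale, as it was for 19.3% of all tested probe sets. In this fit the lower end of the interval allows a drop of up to 1.31-fold, and pair 3 gave the largest of the 3 differences. That bound depends on the processing. With the arrays scaled to a common median, the log2 change of repo was -0.32 with a larger SE, 0.137.

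The authors' deposited table sets the arrays of a pair against each other by a separate algorithm. In the authors' deposited table repo stood at a log2 ratio of -0.2 in pair 1, -0.1 in pair 2 and -0.4 in pair 3, with a decrease called in pair 3 alone. In the authors' deposited table a decrease in pair 3 was called for 5.21% of all probe sets. For gcm, gcm2, loco and moody the authors' deposited table called no change in any pair. The same call was given to 93.3%, 93.1% and 85.9% of all probe sets in pairs 1, 2 and 3.

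The gene gcm, the switch from neuronal to glial fate, lies on 2L. It read 2785, 2964 and 2934 in 6xbcd and 2889, 2986 and 3545 in 2xbcd replicates 1, 2 and 3. A single array, 2xbcd replicate 3, stood above the other 5, which lay between 2785 and 2986 in both groups. The mean was 2894 ± 95.9 over the 6xbcd and 3140 ± 354 over the 2xbcd arrays (SD, n = 3 each). The log2 change was -0.11 (SE 0.0720, limma adjusted p = 0.524), and the 95% interval of the ratio ran from 0.817 to 1.05. The groups overlapped, and the difference was smaller than the spread of the 2xbcd arrays.

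The gene gcm2, the relative of gcm with an overlapping role in glia and blood cells, lies near gcm on 2L, with 2 other protein-coding genes between them in the gene order of assembly Release 6 plus ISO1 MT. The standard error of its log2 change was the largest among the 5 genes. Its signal was 134, 141 and 124 in 6xbcd and 123, 144 and 169 in 2xbcd replicates 1, 2 and 3. Here too 2xbcd replicate 3 was the highest array, while 2xbcd replicate 1 was the lowest. The log2 change was -0.11 (SE 0.187, limma adjusted p = 0.835). The 95% interval of the ratio, 0.673 to 1.29, leaves room for a change of up to 1.49-fold downwards. In pair 1 gcm2 was higher in 6xbcd by 0.12 on the log2 scale of the signals, whereas the authors' deposited table gave -0.1 for that pair.

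The gene loco, which encodes a regulator of G protein signalling and is active in lateral glia, lies on 3R. It read 2168, 2019 and 2007 in 6xbcd and 2009, 2151 and 2097 in 2xbcd replicates 1, 2 and 3. The 6 signals spanned 7.74% of their mean, the narrowest range of the 5 genes, and the highest array was 6xbcd replicate 1. The log2 change was -0.015 (SE 0.0642, limma adjusted p = 0.942), with a ratio between 0.886 and 1.11 at 95% confidence. The SD of its log2 values over the 6 arrays, 0.0506, was larger than that of only 1.23% of tested probe sets. The array does not part maternal from zygotic RNA, or the transcripts of the gene from each other.

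The gene moody, the receptor of the surface glia that is needed for a tight blood-brain barrier, is the only X-linked member. It read 1344, 1444 and 1359 in 6xbcd and 1354, 1395 and 1551 in 2xbcd replicates 1, 2 and 3. The groups overlapped, and 2xbcd replicate 3 was again the highest. The log2 change was -0.050 (SE 0.0693, limma adjusted p = 0.781), and the 95% interval of the ratio was 0.857 to 1.09. Of the X-linked probe sets tested, 3.83% were called, so that moody stood with the large uncalled share of its chromosome.

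Of the 5 protein-coding genes nearest to each member on each side, between 5 and 8 per member were measured. None of these neighbours was called, beside 1.32% of all tested probe sets, so that this count too lies near the background. Their log2 changes lay between -0.36 (beside moody) and 0.29 (also beside moody), with a lowest limma adjusted p of 0.175. The neighbours of gcm and gcm2 are partly the same genes and include each other.

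The members shared the position of 2xbcd replicate 3. It was the highest of the 6 arrays for repo, gcm, gcm2 and moody, by 0.13, 0.24, 0.26 and 0.14 over the gene's own mean on the log2 scale, and for loco by 0.016 without being the highest. The same array was the highest for 21.2% of all tested probe sets, and it is the one farthest out on the main axis. Among the lists below it was also the highest for every measured glial fate regulator and midline glia gene. The same held for most neuroblast genes, but for no measured G protein partner of Moody and Loco. The position is thus not particular to the members. With 2xbcd replicates 2 and 3 both left out, and without the pairs, repo kept a log2 change of -0.19 (limma adjusted p = 0.783). In that comparison, which leaves 1 control array and assumes that it varies like the others, gcm stood at 0.0024, gcm2 at 0.10, loco at 0.038 and moody at 0.029 (limma adjusted p from 0.945 to 0.998). The fitted change of repo was thus below 0 with and without those arrays, and that of the other 4 genes was not. This contrast follows from the signals given above. The repo groups do not overlap, so leaving out control arrays could not reverse its sign. In contrast, gcm, gcm2 and moody lost their highest array, and loco its highest 2xbcd array.

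**Figure D2:**
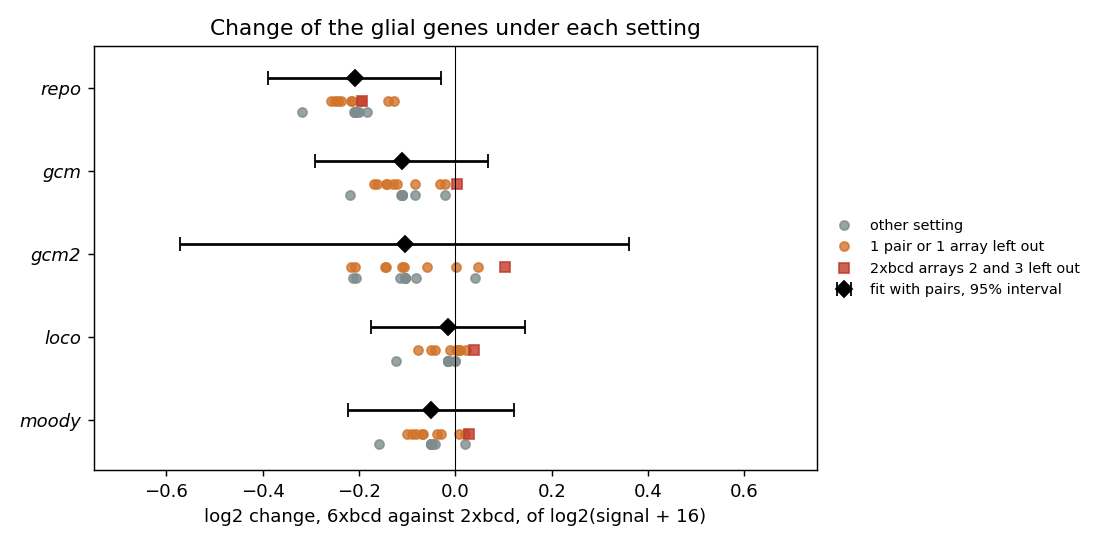
Log2 change between 6xbcd and 2xbcd embryos for each glial gene, with the 95% interval of the fit with pairs (black) and the value under each of 20 other settings (orange, 1 pair or 1 array left out; red square, 2xbcd replicates 2 and 3 left out; grey, other settings). The values of repo lie below 0 throughout, from -0.32 to -0.13, while those of the other genes reach or cross 0. As the repo groups do not overlap, leaving out arrays could not move its value across 0.

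Likeness between genes was described by the root mean square difference of log2 values, each centred on the gene's own mean over the 6 arrays, where 0 is an identical pattern. Among the members, gcm and moody were the closest pair at 0.0499, followed by gcm and gcm2 at 0.0739. The pairs of repo with the other members had 0.114 to 0.126, and gcm2 with loco had 0.128. Closest to repo among 8802 other named probe sets were Trp1, a component of protein translocation into the endoplasmic reticulum, at 0.0202, CG10353 at 0.0272 and Dpm1, an enzyme of mannose transfer, at 0.0314. For gcm they were Arglu1, CG3040 and mim, at 0.0284 to 0.0323. For gcm2 they were the splicing factor gene Smu1, bab2, which encodes a transcription factor of limb and ovary development, and CG3815, at 0.0334 to 0.0449. For loco they were the nucleoporin gene mbo, the phosphoinositide phosphatase gene Sac1 and Set, at 0.0181 to 0.0248. For moody they were CG1750, Mkp3, which encodes a phosphatase of the MAP kinase pathway, and CG3358, at 0.0175 to 0.0280. No glial member was among the 3 closest genes of another, and with 6 arrays and so many candidates such close patterns are a description only.

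Other genes of glial development and of neighbouring cell types were read in 9 lists of 75 genes, of which 52 were measured by a tested probe set. Of these 52, 2 were called higher in 6xbcd embryos and 0 lower, beside 0.75% higher and 0.572% lower of all tested probe sets. The counts at an unadjusted p of 0.05 or less, given for each list in either direction, stand beside 14.9% of all tested probe sets. Both called genes belong to blood cells, and no gene of the glial, neuronal, neuroblast or muscle lists was called.

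Of 8 regulators of glial fate, 4 were measured and 0 called (0 at an unadjusted p of 0.05 or less), with a median log2 change of -0.062. Genes without a tested probe set of their own, such as the Ets factor gene pnt and the receptor gene N, were not analysed here. The Sox gene D had -0.15 (limma adjusted p = 0.339) and pros, a homeobox gene of asymmetrically dividing neural precursors, -0.052 (adjusted p = 0.731). The measured G protein partners of Moody and Loco, 3 of 7, had log2 changes between -0.024 and -0.012 and 0 calls (0 at an unadjusted p of 0.05 or less), among them pins, a Galphai-binding protein gene, at -0.021 and Galphao at -0.024 (limma adjusted p = 0.894 and 0.914).

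Of 10 lateral and surface glial differentiation genes, 8 were measured and 0 called by limma (2 at an unadjusted p of 0.05 or less). The glutamine synthetase gene Gs2 had a log2 change of 0.25 (limma adjusted p = 0.185), with signals of 1707, 1582 and 1826 in 6xbcd and 1461, 1417 and 1411 in 2xbcd embryos. These groups do not overlap, as was the case, with 6xbcd higher, for 7.38% of all tested probe sets. The sodium pump subunit gene nrv2 had -0.16 (adjusted p = 0.304). The list median was 0.30, on the other side of 0 from that of the 5 members. Its 4 highest values, from 0.35 to 0.66, came from probe sets that read 355 or less on every array, such as that of Mdr65, a barrier transporter gene, which read 6.4 to 106 with 5 present calls.

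All 8 septate junction genes of the glial barrier were measured, and 0 were called by limma (1 at an unadjusted p of 0.05 or less). Their log2 changes were all below 0, between -0.21 and -0.059, with a median of -0.15. A change below 0 was seen for 47.3% of all tested probe sets. Every gene of this list read highest on 2xbcd replicate 2 or 3, the arrays with the highest values on the main axis. The claudin gene kune had -0.21 (limma adjusted p = 0.195), and Gli, a gene of tricellular junctions, had -0.18 (adjusted p = 0.379). These genes also serve in epithelia such as epidermis and trachea. Of 6 midline glia genes 3 were measured and 0 called (0 at an unadjusted p of 0.05 or less). The adhesion gene wrapper had -0.23 (limma adjusted p = 0.421) and aos, a secreted inhibitor of EGF signalling, 0.053 (adjusted p = 0.800). Among the measured 3, only wrapper was listed as a cell type marker of midline glia, so the other values do not stand for that cell type.

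**Figure D3:**
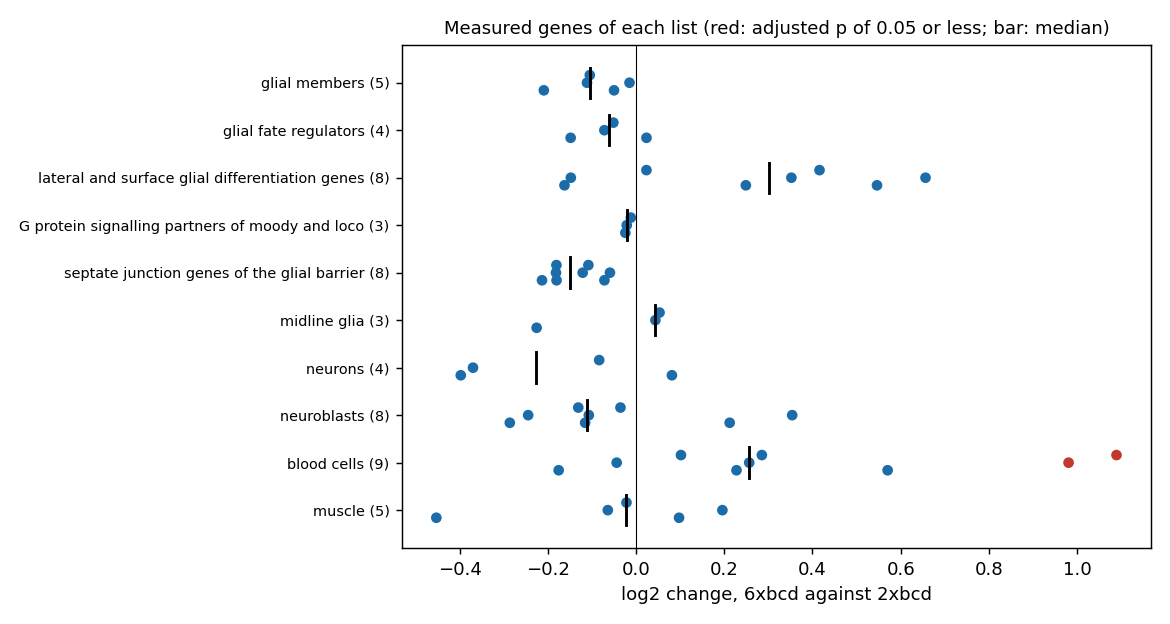
Log2 change between 6xbcd and 2xbcd embryos of each measured gene, by list, with the number measured in brackets, the list median as a black bar and called genes in red. The 5 glial members lie between -0.21 and -0.015, and the only red points are the blood cell genes PPO1 and PPO2.

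Neuronal, neural precursor and muscle genes had 0 members called by limma too (2, 2 and 1 at an unadjusted p of 0.05 or less). Of 9 neuronal genes 4 were measured, while nSyb, brp, futsch and para, genes of mature neurons, had too few present calls. The RNA-binding protein gene fne had -0.37 and the homeobox gene onecut -0.40 (limma adjusted p = 0.265 and 0.291). The list median was -0.23, with log2 changes from -0.40 to 0.081, 3 below 0 and 1 above. The gene elav had -0.084 (limma adjusted p = 0.762). Most of the summed signal of the measured neuronal genes came from elav, at 6901 to 9457 per array. That sum was 10140 to 11860 in 6xbcd and 11700 to 13580 in 2xbcd embryos. The groups thus overlapped in this sum, with 6xbcd replicate 2 above 2xbcd replicates 1 and 2, but the sum mainly follows elav. Taken singly, the groups overlapped for elav and onecut but not for fne. The fne signals were 1995 to 2904 in 6xbcd and 2969 to 3759 in 2xbcd embryos. Such a gap, with 6xbcd lower, was found for 8.68% of all tested probe sets. The part of the neuronal signals in the values of repo was not tested. All 8 neuroblast genes were measured, with a list median of -0.11 and log2 changes from -0.29 to 0.35, 6 below 0 and 2 above. Those with the smallest p were the zinc finger gene nerfin-1 at -0.29 and dpn, a repressor that keeps neuroblasts dividing, at -0.24 (limma adjusted p = 0.198 and 0.265). Of 8 muscle genes 5 were measured, with Hand, a heart and muscle regulator, at -0.45 (limma adjusted p = 0.0532) and the myosin light chain gene Mlc2 at 0.20 (adjusted p = 0.722). In the muscle list 1 gene was called without replicate 3, and 1 where a present call was required on all 6 arrays.

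Blood cells are another site of gcm and gcm2 function, and 9 of 11 blood cell genes were measured, of which 4 had an unadjusted p of 0.05 or less in limma. Of these, PPO1 and PPO2, which encode prophenoloxidases of crystal cells, rose with log2 changes of 1.09 and 0.98 (limma adjusted p = 0.0221 and 0.0224). PPO1 read 2733, 2864 and 2020 in 6xbcd and 1220, 1110 and 1185 in 2xbcd embryos. The list median was 0.26, with log2 changes from -0.18 to 1.09, 2 below 0 and 7 above. The gene srp, the GATA factor of blood precursors, had 0.26 (limma adjusted p = 0.203). The count of 2 called genes fell to 0 without the intensity trend, without pair 1 or pair 2, and, in fits without pairs, without 6xbcd replicate 1 or 2 or 2xbcd replicate 2 or 3, or both of the latter. The genes gcm and gcm2 themselves, at -0.11 each, were not called, and a link between them and the values of PPO1 and PPO2 was not tested.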

How the data were processed

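RNA of 6 embryo batches, 3 per group, was measured on 1 Affymetrix Drosophila Genome 2.0 array each, per the labels' protocols. The deposited signals are linear intensity values that the authors made with GCOS, per the submitters' processing notes (version not given), and their trimmed mean (2% per end) was 500.0 on each array. The authors' deposited table also holds detection calls per array, and for each pair a log2 ratio with its call and p-value (near 1 where 6xbcd is lower).

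Control probe sets (183 of 18952) were left out. Among the 18769 others, 1 gene symbol stood for 13646, several for 402 and none for 4721, and 13543 were matched by Entrez number to Release 6 plus ISO1 MT, which was used for symbols, chromosome arms and gene order only. Values were log2(signal + 16), so that folds of dim probe sets are understated. The test, limma 3.58.1 in R 4.3.3 (lmFit, then eBayes with trend by intensity), was run on the 10137 probe sets called present on 3 or more of the 6 arrays. It was two-sided, blocked on replicate number, with 2 residual degrees of freedom, and adjusted over all 10137 by Benjamini-Hochberg. The script was tested on simulated data. The number of arrays limits the precision.

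The block follows the design text, which calls the experiments paired. Deviations from the group means correlated at 0.437, 0.385 and -0.190 across probe sets for pairs 1, 2 and 3, so the values do not single out the numbered pairs. A gene's list value is its tested probe set with the highest mean. The members and lists were chosen with earlier results of these data known. The text names the members, the called genes or otherwise the 2 genes with the smallest p of each list, and the 3 probe sets most like each member. Outside that rule, Mdr65, srp and elav were named after their values were seen. Tables were made with Python 3.11.15.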

Additional observations from a re-analysis of the deposited data

How the results depend on the processing

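Each of the 5 genes was recomputed under 20 other settings, and none was called under any of them. The 20 include a fit to the second deposited copy of the signals. As 0 signals differed between the copies, that fit could only repeat the main result. The log2 change of repo stayed below 0 in all 20, from -0.32 to -0.13, with a limma adjusted p of 0.224 or more. Most of these settings could not have reversed that sign. The repo groups do not overlap, so leaving out pairs or arrays keeps it. Settings that alter only the test, such as the fit with no replicate block, return the same change. With 1 pair left out, or 1 array in a fit without pairs, the log2 change ran from -0.26 to -0.13 for repo, -0.17 to -0.021 for gcm, -0.22 to 0.046 for gcm2, -0.077 to 0.023 for loco and -0.10 to 0.019 for moody, so that the sign of gcm2, loco and moody depended on single pairs or arrays. Without 2xbcd replicates 2 and 3, gcm stood at 0.0024, gcm2 at 0.10, loco at 0.038 and moody at 0.029. With the main axis in place of the pairs, gcm2 stood at 0.040 and moody at 0.021. The cause of these reversals was not tested. The fit with no replicate block changed no call of a member, and the log2 change of repo was -0.21 in it (limma adjusted p = 0.451), as in the paired fit. Median scaling moved the median of all tested probe sets by -0.11. It shifts the change of every probe set by the same amount. The change of repo relative to that median, -0.22, is therefore the same with and without it by construction.

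The number of all probe sets called, 134, was 5 without the intensity trend and 15 without 2xbcd replicates 2 and 3, and with 1 pair or 1 array left out it ran from 10 to 270. At an unadjusted p of 0.05 or less there were 1511. With 3 arrays per group, the 95% intervals of the 5 genes in the main paired fit leave room for drops of up to 1.13-fold (loco) to 1.49-fold (gcm2). These limits depend on the setting. Under median scaling loco had -0.12 (SE 0.133) and gcm2 -0.21 (SE 0.231), each lower and with a larger SE than in the main fit.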
